A study of Mus musculus with 6 samples.

Results

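Potassium channel mRNAs of mouse brain cortex were followed in direct RNA sequencing data of the poly(A) tail, in wild-type animals and in animals without the fragile X protein FMRP. The members were all genes whose symbol starts with Kcn, without the long noncoding RNA Kcnq1ot1. This gave 98 gene symbols with 424 transcripts, out of 52962 genes and 141196 transcripts in the table. A tail was used only where at least 10 reads carried a tail estimate in every sample, which left 85 transcripts of 54 potassium channel genes, out of 16168 transcripts of 10651 genes. By role, 67 genes encode pore subunits, 16 auxiliary subunits and 10 silent subunits, 4 are antisense RNAs and 1 (Kcnrg) is a regulator.

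The samples were cortex of C57BL/6 mice, 3 wild type (WT) and 3 FMRP knockout (KO). Each gave 1 library of poly(A) RNA whose native strands, with no cDNA step, passed through nanopores of a PromethION, so that 1 read is 1 RNA molecule and the tail is part of it. The labels name no age, sex, Cre driver or treatment. They do not say that the samples of a group are separate animals, so the p-values measure the spread between these samples, which may be technical.

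Potassium channels let potassium ions leave the cell and so set the resting potential, end the action potential and limit firing. Voltage-gated Kv channels are assembled from several pore subunits, with auxiliary subunits (Kv beta, KChIP, KCNE) that change their gating or surface level, and silent subunits that open no pore alone but modify Kv2 channels. Inward rectifiers (Kir) and K2P leak channels carry resting currents, and BK, SK and Slack channels answer to calcium or sodium. FMRP is an RNA-binding protein that mainly represses translation. Work in rodents has linked it to the mRNAs of Kcnd2 and Kcnc1 and to the proteins of Slack (Kcnt1) and the BK channel (Kcnma1, Kcnmb4). The poly(A) tail protects an mRNA and helps its translation, and the study asked how tails depend on FMRP.

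The libraries held 2404074 to 3849077 reads with a tail estimate. Fmr1, the targeted gene, was at 50.2, 51.1 and 51.9 RPM (the deposited reads per library, scaled to 1 common total) in WT and at 10.2, 10.3 and 7.86 RPM in KO. Cortical neuron and glia markers were present in every library. Of 7 choroid plexus markers, a tissue outside the cortex, the summed level was 450, 38.1 and 873 RPM in the WT libraries and 15.5 to 25.2 RPM in KO. Most of this was 1 gene, Ttr, at 431, 30.1 and 850 RPM in WT and 10.8 to 20.9 RPM in KO. The other markers were each at 5.96 RPM or less in every library.

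The sequences below are the last 30 bases of annotated transcripts, which is where the tail is added. They are shown for the genes with the shortest and the longest tail, for the separate annotated ends of 2 Kcnc1 transcripts, and for Kcnv1, the channel whose abundance changed. Capitals mark the polyadenylation signal AATAAA or its variant ATTAAA, read on the transcript strand.
Kcnmb4: atATTAAAagacagtgctctgtgctctcta
Kcnt1: gatcAATAAAagccacctgcacacctggaa
Kcnc1 ENSMUST00000160433.2: cctggaAATAAAgagctgacttttgatctg
Kcnc1 ENSMUST00000025202.7: ttatgAATAAAcctgattggtccatttctc
Kcnv1: tgtgaatatagcaagatgttattagaaatc
The sequences are from the GENCODE transcripts of mouse build GRCm38 (mm10), and each lies in the last exon of its transcript. The Kcnmb4 end is chr10:116417861-116417890 on the minus strand, Kcnt1 chr2:25918244-25918273 on the plus strand and Kcnv1 chr15:45106284-45106313 on the minus strand. The Kcnc1 ends are chr7:46438675-46438704 and chr7:46433325-46433354, both on the plus strand. Of the 85 potassium channel transcripts, 80 were found in the annotation with the same version. In the last 40 bases, 68.8% of these 80 held AATAAA, against 65.5% of 15851 transcripts with a tail. A further 13.8% held only ATTAAA, against 14.5%, and 17.5% held neither, against 20.04%. The Kcnv1 window held neither, which says only that these letters are absent there.

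Of the families, Kv beta, Kir and KChIP had the highest summed levels in cortex. Kv beta genes summed to 417.5 ± 22.98 RPM in WT (SD, n = 3), Kir genes to 400 ± 19.7 RPM and KChIP genes to 320 ± 1.93 RPM. Kv beta and Kir did not differ beyond their spread. Kv7 (260 ± 14.6 RPM), Kv3 (246 ± 11.9) and K2P (240 ± 6.41) followed with overlapping values, then Kv1 at 193 ± 6.41 RPM and the EAG, ERG and ELK group at 188 ± 10.9 RPM. Since a read is a molecule, RPM was not divided by transcript length.

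**Figure D1:**
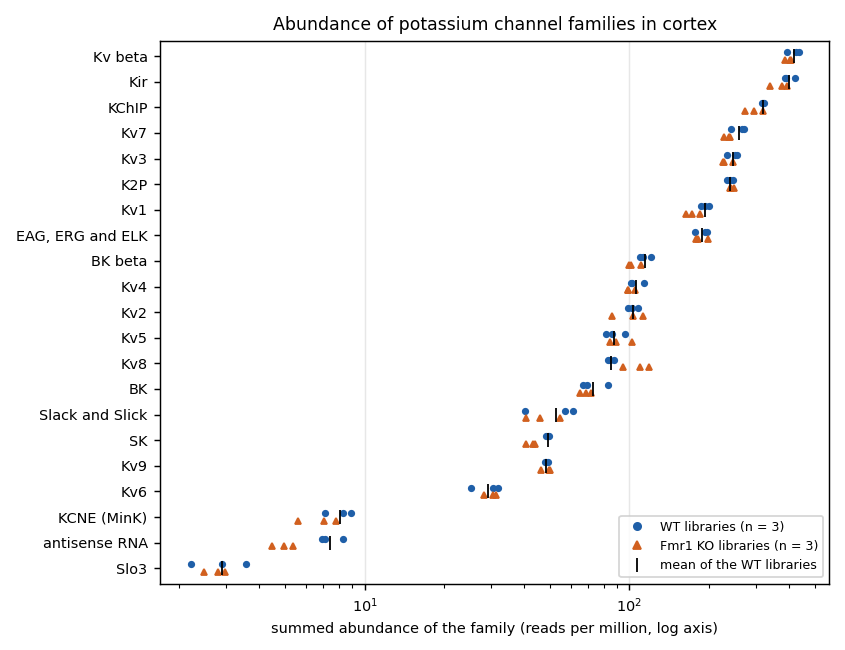
Summed abundance of each potassium channel family in RPM, on a log axis. Circles are the 3 WT and triangles the 3 KO libraries, and bars mark the WT means. Kv beta stands first at 417 RPM in WT, and the Kv8 triangles, which are Kcnv1 alone, lie to the right of its circles.

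Kcnab2, the Kv beta2 subunit that helps bring Kv1 channels to axons, had the highest level of any member, 256, 268 and 274 RPM in WT and 244, 265 and 263 RPM in KO. Kcnip2, a KChIP that binds Kv4 channels, and Kcnk1, a weakly conducting K2P channel, were both at 122 RPM in WT, with SDs of 12.98 and 5.19. Kcnmb4 (111 ± 6.70), Kcnab1 (110.3 ± 17.1), Kcna2 (109 ± 8.84) and Kcnip3 (106.8 ± 2.173) lay within their spread of each other. Kcnj10, the Kir4.1 channel of astrocytes, had 93.4 ± 13.97 RPM.

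At the low end, Kcnk16, Kcna10, Kcnv2, Kcnj1, Kcne1, Kcna7 and Kcnmb3 had no read of either kind in any library. Kcng3 had 0 tail reads and 0.223 RPM in 1 WT library. Several of these are known from heart, kidney or retina rather than brain. Kcnj13 and Kcne2, both known from choroid plexus, were sparsely read, Kcnj13 at 1.66, 2.01 and 3.53 RPM in WT and 1.49, 1.56 and 1.57 RPM in KO, and Kcne2 at 0.474, 0 and 1.99 RPM in WT and 0.212, 0.311 and 0 RPM in KO. Each was highest in the WT library with the most choroid plexus RNA, its part was not tested, and both were named after their values were seen. Of the 98 genes, 90 had at least 1 read with a tail.

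Tails of potassium channel mRNAs differed widely between genes. With each gene represented by its most-read transcript, WT means ran from 109 to 202 nt, and the middle 50% of the 54 genes lay between 133 and 160 nt, against 130 and 158 nt over all 10651 genes. The median per library was 144 ± 1.03 nt in WT against 142 ± 1.40 nt in KO (SD, n = 3), against 143 ± 2.66 and 141 ± 2.11 nt over all genes.

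The shortest tails belonged to Kcnmb4, the neuronal beta4 subunit of BK channels. They were 106, 109 and 111 nt in WT against 112, 104 and 114 nt in KO over 2145 reads, and 4.99% of all genes had a shorter WT mean. Next came Kcnj4, the Kir2.3 inward rectifier, at 122 ± 4.11 nt, and Kcna6, the Kv1.6 pore subunit, at 122 ± 11.5 nt. The Kcna6 transcript is annotated as a target of nonsense-mediated decay. Kcns1, a silent subunit, was at 122 ± 9.77 nt and Kcnk2, the TREK-1 leak channel, at 124 ± 2.88 nt. Kcnmb4 stood 13.1 nt below the next gene, while Kcnj4, Kcna6, Kcns1 and Kcnk2 did not differ beyond their spread.

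The longest tails belonged to Kcnt1, the sodium-activated Slack channel, with 178, 218 and 209.9 nt in WT against 201, 180 and 195 nt in KO over 328 reads. Its paralogue Kcnt2 (Slick) was at 184 ± 20.1 nt in WT. Kcnab3, the Kv beta3 subunit, had 193 ± 7.51 nt and the TASK-3 leak channel Kcnk9 190.5 ± 14.4 nt. Kcnc2, the Kv3.2 channel of fast-spiking cells, had 180.4 ± 5.30 nt. Among these 5 genes, each overlapped in WT with its neighbour in the order, so the order is not resolved beyond the spread.

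**Figure D2:**
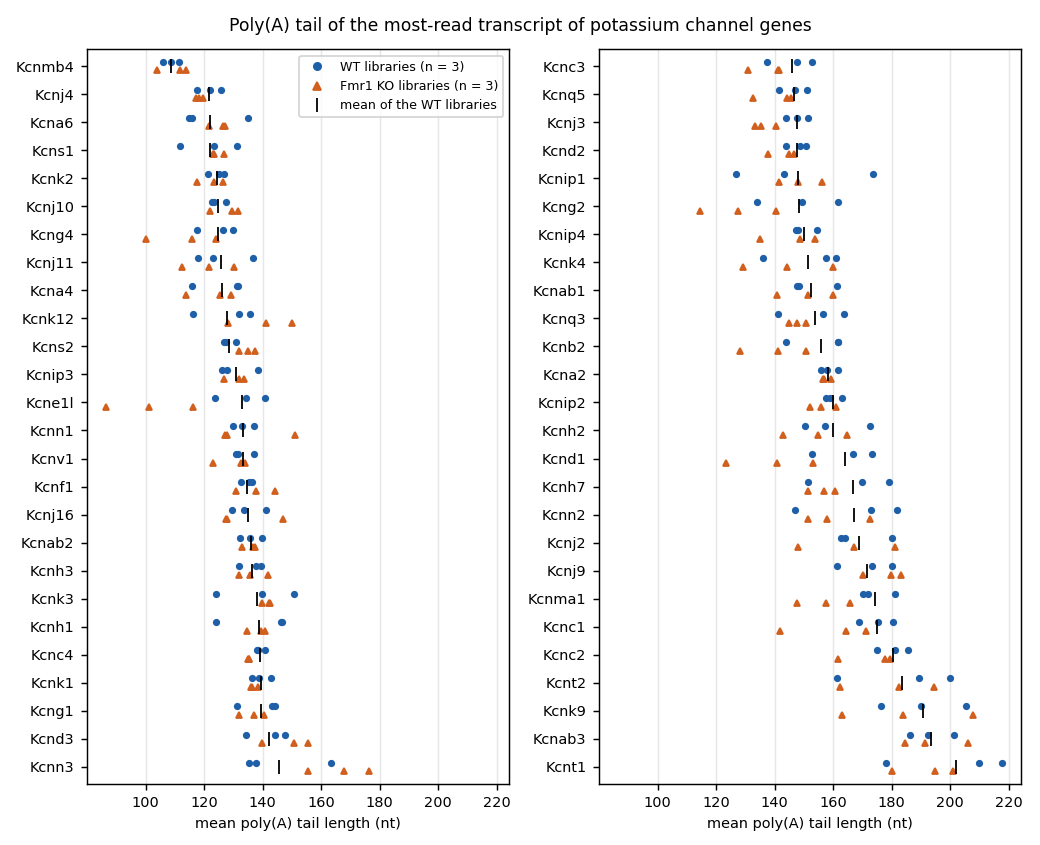
Poly(A) tail (nt, mean over reads) for the most-read transcript of 52 potassium channel genes, in order of the WT mean. Circles are the 3 WT libraries, triangles the 3 KO libraries and bars the WT means. The order runs from Kcnmb4 at 109 nt to Kcnt1 at 202 nt, and the triangles overlap the circles for most genes.

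By role, the median over genes was 131 ± 0.269 nt in WT for the 7 silent subunits with a tail. It was 148 ± 0.970 nt for the 38 pore genes and 144 ± 3.86 nt for the 9 auxiliary genes. These SDs are over the medians of the 3 libraries, not over genes. In KO the medians were 130.0 ± 5.17, 144 ± 2.64 and 142 ± 5.49 nt in the same order. Single genes overlapped between roles. WT means ran from 122 nt (Kcns1) to 148 nt (Kcng2) for silent subunits and from 122 nt (Kcnj4) to 202 nt (Kcnt1) for pore genes. Within families, the 3 Kv beta genes ranged from 136 to 193 nt and the 4 Kv3 genes from 139 nt (Kcnc4) to 180.4 nt (Kcnc2). Over the 54 genes, tail length and transcript length, both on the log2 scale, had Pearson's r = 0.35 and Spearman's rho = 0.34 across genes. For tail and WT abundance, r was -0.0023 and rho -0.012. These are descriptions of genes measured in the same libraries, not of independent replicates.

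No potassium channel tail passed the test between KO and WT. By limma on log2(tail in nt + 1) with Benjamini-Hochberg adjustment over all transcripts, 0 of 85 passed an adjusted p of 0.05, and the background was 0.0% of 16168. At an unadjusted p under 0.05 there were 5 of 85 (5.88%), against 5.84% of all transcripts. Of the 85, 55 had a lower mean log2 tail in KO and 30 a higher one. That is 64.7% lower, against 58.8% of all transcripts. With each library centred on its own median, 47 of the 85 were lower, a larger share than the 47.3% of all transcripts. The 85 transcripts belong to 54 genes read in the same 6 libraries, so they are not independent. No test was made of these shares. The median change was -0.03 on the log2 scale, against -0.01 over all transcripts.

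The tail with the smallest p was that of Kcne1l, an X-linked KCNE subunit, at chrX:142304752-142306294. Its WT tails were 134, 141 and 124 nt and its KO tails 101, 86.6 and 116 nt. Every KO value lay below every WT value, on 113 reads in all. The change was -0.40 ± 0.11 (log2, SE), with an adjusted p of 0.736 by limma (0.00796 before adjustment).

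The BK channel pore gene Kcnma1, at chr14:23289431-24014491, had tails of 172, 170.0 and 181 nt in WT against 157, 166 and 148 nt in KO, on 1257 reads. The groups did not overlap, and the change was -0.15 ± 0.06 (log2, SE) with an adjusted p of 0.840 by limma. Kcnj3, the GIRK1 channel that opens on G-protein signals, had 152, 148 and 144 nt in WT against 133, 135 and 140.4 nt in KO. Its groups did not overlap either, with a change of -0.11 ± 0.05 and the same adjusted p of 0.840.

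Kcnd1, a Kv4 pore gene, had 153, 167 and 173 nt in WT against 153, 141 and 123 nt in KO, and the groups overlapped. Kcng2, a silent subunit, had 149, 134 and 162 nt in WT against 140.5, 114 and 127 nt in KO. Each rested on fewer than 150 reads in all 6 libraries (142 and 118), and the adjusted p-values were 0.822 and 0.843 by limma.

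A transcript of Kcnh2, the ERG1 channel, stood on the other side. ENSMUST00000115098.6 had 158, 156 and 150.4 nt in WT against 167, 176 and 164 nt in KO on 110 reads, a change of 0.13 ± 0.05 (log2, SE) with an adjusted p of 0.843 by limma. It made up 39.3%, 33.8% and 29.1% of the RPM of its gene in WT and 26.6%, 28.3% and 20.3% in KO. These shares did not overlap, but they were not tested, nor set against those of other transcripts. The gene was at only 18.9 ± 1.04 RPM in WT and 15.2 ± 2.22 RPM in KO. In the authors' deposited DESeq2 comparison the abundance of this transcript had an unadjusted p of 0.236. The most-read Kcnh2 transcript shares the annotated 3′ end and had overlapping tails, 173, 157 and 150.3 nt in WT against 165, 143 and 155 nt in KO.

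Groups did not overlap for 7 of the 85 transcripts (8.24%), against 10.9% of all transcripts. KO lay below WT for 4 (Kcnc4, Kcne1l, Kcnj3 and Kcnma1), 4.71% against 7.53%. It lay above WT for 3 (Kcns2, the Kcnh2 transcript and a Kcnip4 transcript), 3.53% against 3.41%.

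The other genes linked to FMRP showed no tail change that passed the test. Kcnd2, the Kv4.2 subunit of dendritic A-type current, had 144, 149 and 151 nt in WT against 145, 138 and 146 nt in KO, a change of -0.05 ± 0.05 (log2, SE) with an adjusted p of 0.939 by limma. Kcnt1 changed by -0.07 ± 0.09 with an adjusted p of 0.958, and Kcnmb4 by 0.02 ± 0.05 with an adjusted p of 0.991. The sign of the Kcnmb4 value turned without WT library 1 or KO library 3.

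Kcnc1, the Kv3.1 channel of fast-spiking neurons, gave 2 transcripts with separate annotated 3′ ends. ENSMUST00000160433.2 ends at the downstream site, although its annotated length is the smaller, 3156 against 7760 nt. Its tails were 175, 169 and 181 nt in WT against 164, 142 and 171 nt in KO. Those of ENSMUST00000025202.7, which ends upstream, were 149.9, 131 and 138 nt in WT against 150.4, 153 and 145 nt in KO.

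The transcript with the downstream end thus had the longer tail by 25.3, 37.7 and 43.0 nt in WT, and by 14.04, -11.1 and 26.6 nt in KO. Over the 6 libraries the mean difference was 22.6 ± 19.4 nt (SD), and it had 1 sign in 5 of them, with p = 0.0625 and an adjusted p of 0.375 by the exact sign-flip permutation test. An exact permutation test of the difference between genotypes gave p = 0.2 on 3 against 3 libraries, where the smallest possible is 0.1. This pair was chosen for description after its values were seen.

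In all, 21 potassium channel genes had 2 transcripts past the read minimum. The difference had 1 sign in all 6 libraries for 2 of them, 9.52%, against 19.8% of 3640 genes. None passed an adjusted p of 0.05 by the two-sided exact permutation test over sign flips, whose smallest p is 0.03125. After adjustment over the 21 genes, a pair at that smallest p could pass only if most of the 21 were at it. That none passed thus does not show that the tails of 2 transcripts were alike. Both that had 1 sign were at that smallest p, with an adjusted p of 0.328.

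Kcnk4, the TRAAK leak channel, had the larger difference of these, 25.4 ± 19.2 nt (SD over 6 libraries). The transcript of 600 nt had tails of 148 ± 13.5 nt and that of 1763 nt tails of 122 ± 15.8 nt. Their annotated ends differ, at chr19:6928717-6928746 and chr19:6925662-6925691 on the minus strand, and only the former window holds a signal.
Kcnk4 ENSMUST00000236443.1: atAATAAAtaaatctcttttttttaaagaa
Kcnk4 ENSMUST00000025908.7: cactaccgagtgcatgctcctgggtcccaa
The Kcnk4 gene had 256 tail reads but only 184 reads by RPM, so its reads were assigned by different rules in these columns and its values are uncertain. The transcript of 600 nt had 130 tail reads against 106 for the other. Its mean expression signal as deposited by the authors was 4.42 against 21.4, the opposite order. Which of the 2 transcripts each tail came from is thus uncertain too.

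Kcnip2 was the other. Its most-read transcript had the longer tail by 10.96, 8.14 and 7.99 nt in WT and by 14.4, 5.03 and 2.34 nt in KO, against ENSMUST00000079431.9, which has the same annotated 3′ end. A further Kcnip2 transcript with that end, ENSMUST00000111906.1, had 172, 183 and 196 nt in WT against 162, 189.7 and 191 nt in KO, on 311 reads. It was noticed after its values were seen and was not tested against the others.

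**Figure D3:**
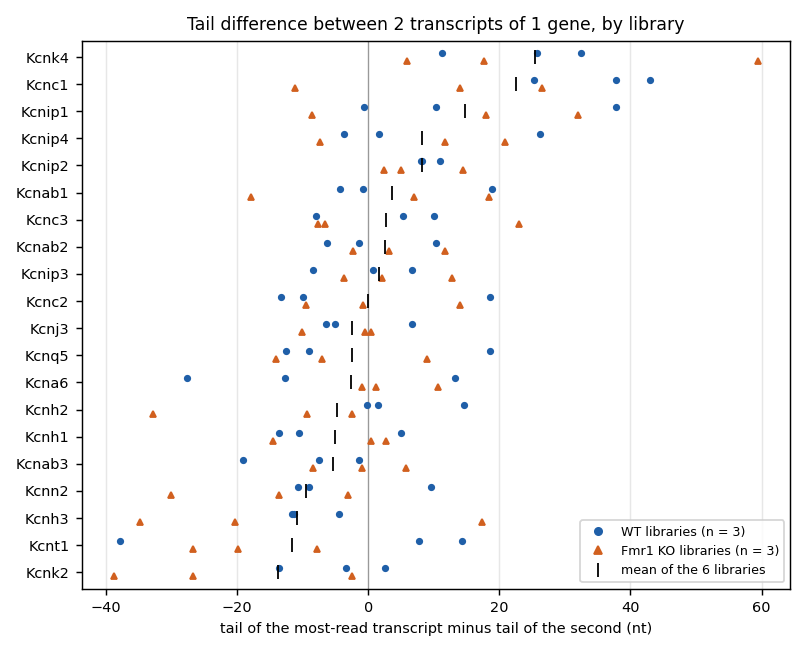
Tail of the most-read transcript minus that of the second most-read, in nt, for 20 potassium channel genes in each library. Circles are WT, triangles KO and bars the mean of 6 libraries. Kcnk4 and Kcnip2 lie on the right of 0 in all 6 libraries, and for Kcnc1 the 3 WT circles lie between 25.3 and 43.0 nt while 1 KO triangle lies below 0.

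In abundance, 1 potassium channel gene changed. The test was edgeR's quasi-likelihood test on the reads with a tail, summed per gene, with adjustment over 12543 genes. It covered 69 gene records of 68 members that passed the filter on low counts. Of these, 1 (1.45%) passed an adjusted p of 0.05, against 1.03% of all genes. Of the 129 genes that passed, 72 were higher in KO, while limma on log2(RPM + 1) gave 16 of 40.

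Kcnv1 rose in KO. It encodes Kv8.1, a silent subunit that combines with Kv2 channels and reduces their current. It lies on chromosome 15, at chr15:45106284-45114920 on the minus strand. Its level was 82.7, 87.4 and 84.8 RPM in WT and 94.3, 109.6 and 119 RPM in KO. Every KO library was above every WT library. The log2 change was 0.44 ± 0.09 (SE), a 1.36-fold rise, with an adjusted p of 0.0163 by edgeR. Of all genes tested, 0.574% were called higher in KO.

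Nearly all of it was 1 transcript, ENSMUST00000022967.6, which held 99.7% to 99.8% of the gene's RPM in every library. In the same test per transcript, it was the 1 call among 106 potassium channel transcripts, with a log2 change of 0.44 ± 0.10 (SE) and an adjusted p of 0.0376 by edgeR, against 0.517% of 19933 transcripts called in either direction and 0.256% called higher. Of the 106, 58 had a lower value in KO (54.7%, against 50.9% of all). In the authors' deposited table its log2 fold change is -0.365 with an unadjusted p of 0.00308. The direction of that column is not stated. Fmr1, which was lower in KO, is positive in it, at 2.86 for its most abundant transcript. Read by Fmr1, a negative value there stands for a higher level in KO.

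The Kcnv1 call depended on single libraries and on the tool. With edgeR the gene's adjusted p was 0.0509 without WT library 2, 0.113 without KO library 2 and 0.124 without KO library 3. By limma on log2(RPM + 1) it was 0.155, with a log2 change of 0.33. DESeq2 gave an adjusted p of 0.0473 per gene and 0.261 per transcript. The call of the gene held in 8 of 13 alternatives. The 7 excitatory neuron markers summed to 1307 to 1419 RPM in WT and 1386 to 1459 RPM in KO. Most of this was 1 gene, Slc17a7, at 1026 to 1133 RPM in WT and 1111 to 1176 RPM in KO. By edgeR, 3 of the 7 had a higher value in KO and the rest a lower one, and 0 passed. The part of these markers in the Kcnv1 result was not tested. In bulk tissue, more cells of a type and more RNA per cell cannot be told apart.

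Its tail showed no change that passed the test, with 131, 137 and 132 nt in WT against 134, 123 and 132 nt in KO. The change was -0.04 ± 0.05 (log2, SE) with an adjusted p of 0.960 by limma, and without KO library 2 the value was 0.000055. Of the reads counted for Kcnv1 by RPM, 51.5% had a tail estimate, against 78.4% over all transcripts. The share was 47.6%, 50.5% and 58.3% in WT and 50.0%, 53.1% and 50.2% in KO, so it overlapped between the genotypes. Over all transcripts it was 76.2%, 80.8% and 85.0% in WT and 75.2%, 74.8% and 77.3% in KO, lower in KO on the whole though with overlap. With the whole reads recovered from RPM as the counts, edgeR gave Kcnv1 a log2 change of 0.38 and an adjusted p of 0.0225.

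**Figure D4:**
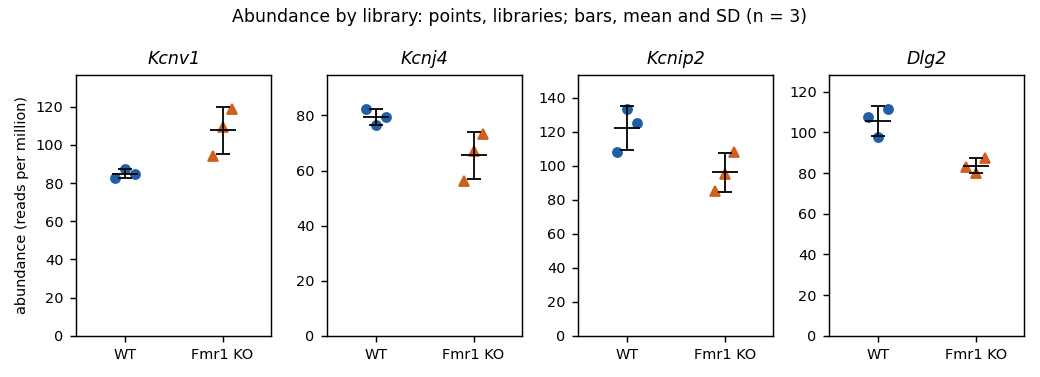
Abundance in RPM of Kcnv1, Kcnj4, Kcnip2 and the channel partner Dlg2. Points are libraries, and bars are the mean and SD of 3 libraries. Kcnv1 lies at 94.3 to 119 RPM in KO, above its WT libraries, and Dlg2 at 80.0 to 87.4 RPM in KO, below its WT libraries.

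The 5 genes with the next smallest p did not pass. Kcnj4, on chromosome 15 at chr15:79483714-79505241, had 82.5, 76.5 and 79.5 RPM in WT and 56.3, 67.2 and 73.2 RPM in KO. The groups did not overlap, and the log2 change was -0.32 ± 0.09 (SE) with an adjusted p of 0.0899 by edgeR. Without KO library 3 the adjusted p was 0.0339. Its tail reads were 104% of its reads by RPM.

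Kcnip2, on chromosome 19 at chr19:45791839-45816061, had 108.1, 134 and 125 RPM in WT and 85.3, 95.3 and 108.2 RPM in KO, so that 1 KO library reached the lowest WT value. The log2 change was -0.30 ± 0.10 (SE) with an adjusted p of 0.183 by edgeR. Without WT library 1 the change was -0.41 and the adjusted p 0.00455. Striatum markers, from tissue beside the cortex where both genes are known to be expressed, summed to 605, 852 and 737 RPM in WT and 651, 661 and 742 RPM in KO. Their part in these values was not tested.

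Kcna6 had a log2 change of 0.27 ± 0.10 (SE) in tail reads with an adjusted p of 0.238 by edgeR, while its RPM overlapped, 50.5, 46.2 and 55.9 in WT and 52.4, 55.4 and 55.9 in KO. For Kcnmb4, RPM was 105, 109 and 118 in WT and 94.7, 98.4 and 107 in KO. The change was -0.17 ± 0.07 with an adjusted p of 0.339. Kcnn2, an SK channel of the afterhyperpolarization, had 26.004 ± 2.81 RPM in WT and 21.9 ± 2.05 RPM in KO, with a change of -0.29 ± 0.13 and an adjusted p of 0.341 by edgeR.

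Over the 69 gene records, 39 had a lower and 30 a higher value in KO (56.5% lower, against 50.6% of all genes), and the median log2 change was -0.04, against -0.0028 over all genes. At an unadjusted p under 0.05 there were 12 of 69 (17.4%), against 12.9% of all genes, 7 lower and 5 higher. By RPM, every KO library lay below every WT library for 12 of 69 (17.4%), against 13.3% of the genes tested, and above it for 2 (2.899%), against 5.72%.

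By role, 31 of 50 pore subunits had a lower value in KO and 6 of 8 silent subunits a higher one. Auxiliary subunits were 5 and 5. Kv7 (4 of 4), Kv4 (3 of 3) and the Slack and Slick pair (2 of 2) were lower in all tested members, and Kv6 (3 of 3) higher. Of all these genes only Kcnv1, 1 of the silent subunits, passed the test, and no test was made of the roles or families.

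Summed over genes, the pore subunits were at 1950, 1896 and 1894 RPM in WT and 1728, 1822 and 1862 RPM in KO, without overlap. Kv7 was at 270.2, 266 and 243 RPM in WT and 228, 239 and 238 RPM in KO, also without overlap. This was not particular to Kv7. Kv1 (199.6, 192.3 and 186.8 RPM in WT, 172.8, 164.1 and 184.2 RPM in KO), SK and the antisense RNAs were lower in KO without overlap too. Kv8, which is Kcnv1, was higher without overlap, and the other families overlapped. On the RPM scale the median of all genes was itself lower in KO, by limma at -0.0429 (log2), and 60.3% of all genes were below 0.

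The remaining genes linked to FMRP had overlapping levels and did not pass. Kcnc1 had 85.8, 75.4 and 74.8 RPM in WT and 71.8, 80.9 and 68.0 RPM in KO, Kcnd2 69.9, 61.1 and 66.0 in WT and 62.6, 60.4 and 66.5 in KO. Kcnma1 had 83.0, 66.7 and 69.1 RPM in WT and 65.0, 68.5 and 71.9 in KO. Kcnt1 had 26.3, 43.5 and 36.9 RPM in WT and 29.9, 25.2 and 36.8 in KO. Their adjusted p-values by edgeR were 0.906, 0.859, 0.928 and 0.6495. The antisense RNA of the Kcnmb4 locus, Kcnmb4os2, had 6.40, 5.80 and 6.62 RPM in WT and 3.40, 4.36 and 4.72 RPM in KO, with a log2 change of -0.38 ± 0.27 (SE) and an adjusted p of 0.607.

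For the other families, the most-read gene also had overlapping RPM in KO and WT for Kcnf1, Kcnh3 and Kcng1, and KO below WT for Kcna2 (119, 107 and 101 against KO values of 93.4, 84.4 and 98.4 RPM) and Kcns2 (26.3, 28.6 and 24.7 against KO values of 21.9, 17.7 and 20.2 RPM). None of these passed. Kcnk1 also overlapped, as did Kcnu1, which was at 2.89 ± 0.674 RPM in WT. Kcnn1 is listed under 2 gene records with matching transcripts, so that its reads may be split between them.

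**Figure D5:**
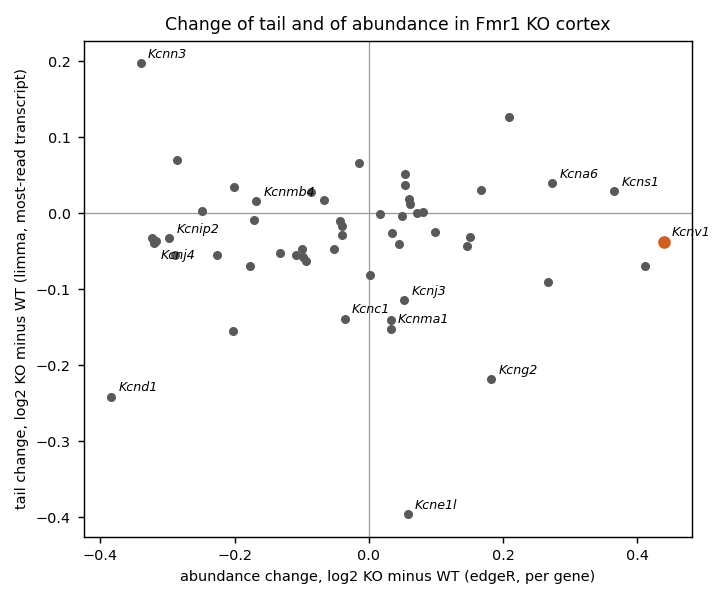
Change of abundance (edgeR, tail reads per gene) against change of tail length (limma, most-read transcript) for 54 potassium channel genes, both as log2 KO minus WT. Kcnv1, in orange, is the gene that passed the abundance test, and 20 of the 54 genes lie at lower abundance and shorter tail.

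Of the 54 genes with both values, 20 had less RNA and a shorter tail in KO, 16 more RNA and a shorter tail, 8 less RNA and a longer tail and 10 more RNA and a longer tail. Kcnv1 was in the second of these classes, as was Kcne1l, whose abundance change was 0.06 ± 0.30 (log2, SE).

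Channel partners were read from a list of 27 genes that encode scaffolds, anchors and further subunits of these channels, of which 23 were tested. Of these, 1 passed (4.35%, against 1.03% of all genes), and 6 had an unadjusted p under 0.05 (26.1%, against 12.9%). In KO, 12 had a lower and 11 a higher value. Dlg2, the PSD-93 scaffold that binds the tails of Kv1 channels, fell in KO. It had 108, 97.7 and 112 RPM in WT and 83.2, 80.0 and 87.4 RPM in KO, without overlap. The log2 change was -0.40 ± 0.08 (SE) with an adjusted p of 0.00855 by edgeR, and 0.454% of all genes were called lower in KO. The call held in 9 of 13 alternatives. The adjusted p was 0.0860 without KO library 2, 0.0735 with the reads recovered from RPM, and 0.102 and 0.116 by limma on log2(RPM + 1) and log2(RPM + 0.1).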

How the data were processed

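Poly(A) RNA of 3 WT and 3 KO cortex samples was sequenced directly (SQK-RNA002 kit), per the labels' protocols. Build mm10 and the tools Salmon 1.5.2, SAMtools 1.9, minimap2 2.17 and DESeq2 come from the submitters' processing notes, which give no roles. The sources used here do not give how tails were estimated or whether counting used strand. Per the file headers, the authors deposited for each transcript and sample the mean tail in nt, the read count behind it, and RPM. Multiplied back, 99.961% to 100% of deposited RPM values gave whole reads (within 0.01), 3212071 to 4710220 per library. The authors also deposited log2 fold changes, a test score, a mean expression signal and p-values.

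Tails (at least 10 reads in every sample) were tested with limma 3.58.1 on log2(nt + 1) with a variance trend. Read counts were summed per gene and tested with edgeR 4.0.16 (TMM, filterByExpr, quasi-likelihood), with Benjamini-Hochberg adjustment over all features. DESeq2 1.42.0 was an alternative. Isoform tails used an exact sign-flip permutation test. Scripts were tested on simulated data.

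Members and lists were chosen with earlier results of these data known. Genes named were those past an adjusted p of 0.05, the 5 longest and 5 shortest WT tails, the 10 most abundant, the 6 smallest p-values for tail and for abundance, the most-read gene of each family, isoform pairs of 1 sign in 6 libraries, and genes linked to FMRP. A few genes that this rule names are not reported here.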

Additional observations from a re-analysis of the deposited data

How the results depend on the processing

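No potassium channel tail passed an adjusted p of 0.05 under any of the 15 alternatives. No isoform pair passed with differences on the log2 scale or with 30 reads required, where again a pair could pass only if most were at the smallest p. With 1 library left out the smallest exact permutation p is 0.0625, so no pair could pass there. Of the potassium channel genes tested for abundance, 3 passed with no filter on low counts (Kcnip2, Kcnj4 and Kcnv1) and 0 with limma on log2(RPM + 1) or log2(RPM + 0.1). Leaving out 1 library at a time gave 0 to 2 genes: Kcnv1 and Kcnip2 without WT library 1, 0 without WT library 2 or KO library 2, and Kcnj4 in place of Kcnv1 without KO library 3. Of the transcripts, 0 passed with DESeq2 and with limma on RPM at either pseudocount, and 0 to 1 with 1 library left out. The median tail in WT was 146 nt where 30 reads were required.

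Deviations from the group means were little correlated between samples of the same replicate number (0.0037 to 0.021 for tails and -0.0652 to 0.0484 for abundance). Between samples of different number the correlations were -0.0169 to 0.0070 for tails and -0.0966 to 0.0665 for abundance. These values cannot show whether the samples were prepared in pairs. With a replicate block, 0 tails, 1 gene and 1 transcript passed, and Kcnv1 had a log2 change of 0.45 with an adjusted p of 0.0195 by edgeR.

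Signs of values that did not pass turned in a few settings. With 1 library left out, the log2 tail change ran from -0.010 to 0.056 for Kcnmb4 and from -0.060 to 0.000055 for Kcnv1, and the log2 abundance change from -0.084 to 0.0030 for Kcnc1 and from -0.029 to 0.13 for Kcnma1. The abundance change of Kcnma1, 0.03 in the test reported, was -0.085 with limma on log2(RPM + 1), -0.086 on log2(RPM + 0.1) and -0.045 with recovered reads. Over the whole table, the 129 gene calls became 58 with DESeq2, 249 with no filter, 40 and 33 with limma on RPM at pseudocounts of 1 and 0.1, and 57 to 206 with 1 library left out, while recovered reads gave 101. The 103 transcript calls became 32, 180, 34 and 24 in the same order, 171 with the block and 44 to 163 with 1 library left out. The 0 tail calls became 11 with the variance trend on read number. The cause was not tested. Depth limits the rarer channels: only 54 of the 98 genes had a transcript past the read minimum.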
